A study of Mus musculus with 8 samples.

Results

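The killer lectin-like receptor (Klr) genes were described in malignant peripheral nerve sheath tumors (MPNST) of mice, which are sarcomas that arise from Schwann lineage cells, profiled by poly-A RNA sequencing of whole tumors. The genes were taken by symbol, as every row of the deposited table whose name starts with Klr, a letter from a to k and a digit. There were 36 of them among 20943 rows, and the family was chosen with earlier results of these data known. The comparison was between 3 tumors labelled PRC2 loss and 5 labelled PRC2 wildtype, and it asks how these genes stand in tumors that lack Polycomb repressive complex 2 (PRC2), which methylates histone H3 at lysine 27.

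The 3 PRC2 loss tumors came from mice with Plp-CreERT and the floxed alleles Nf1(f/f), Cdkn2a(f/f) and Eed(f/f), and the 5 wildtype tumors from mice with Plp-CreERT, Nf1(f/f) and Cdkn2a(f/f). Tamoxifen (0.4 mg) was given to all mice on days 0 to 3 after birth, so both groups share the induced loss of Nf1 and Cdkn2a and the difference is Eed, a core subunit of PRC2. Plp-CreERT is a recombinase active in Schwann lineage cells, so the immune cells in a tumor were not its target. PRC2 loss tumor 1 was from a right paraspinal nerve, and PRC2 loss tumors 2 and 3 were from the left and right sciatic nerves of 1 animal number. The 5 wildtype tumors carry 3 animal numbers, with tumors 1 and 2 sharing one and tumors 3 and 4 another. Tumors of 1 animal number are treated as separate samples here, which can make p-values too small. The sites of the wildtype tumors, the strain and the age are not given in the labels. Eed itself, on chromosome 7, had 8.76, 8.93 and 8.96 in PRC2 loss tumors, against 10.32, 10.33, 10.17, 10.19 and 10.23 in wildtype tumors, in quantile-normalized log2 counts, the unit of all levels below. It fell by 1.36 on the log2 scale (SE 0.115, adjusted p in limma 0.00021), and some Eed RNA remained in every PRC2 loss tumor.

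Natural killer (NK) cells use Klr receptors to decide whether to kill: inhibitory members bind major histocompatibility complex (MHC) class I or other ligands that healthy cells display, and activating members bind ligands of stressed or infected cells. The Klra genes, also called Ly49, encode dimeric receptors of rodents that do the work of the killer immunoglobulin-like receptors of primates. The Klrb1 genes encode the NKR-P1 receptors, Klrd1 (CD94) pairs with Klrc proteins, Klrk1 encodes NKG2D and Klrg1 encodes a receptor of cadherins. NK cells are the main carriers, some T cells carry several, and a few members are known from dendritic cells and macrophages.

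All 36 Klr genes were tested. In PRC2 loss tumors 24 were lower, 1 was higher and 11 did not pass the threshold, an adjusted p of 0.05 in limma over 20807 genes, of which 19.6% were lower and 16% higher. The groups did not overlap for 23 Klr genes whose PRC2 loss tumors all lay below the wildtype tumors, and for 1 whose PRC2 loss tumors all lay above, where 21.4% and 16.9% of all genes did the same. The median difference, PRC2 loss minus wildtype, was -2.71 over the Klr genes and -0.12 over all genes. By family, 14 of 20 Klra genes were lower, 2 of 6 Klrb1 genes were lower and 1 higher, 4 of 5 genes among Klrc, Klrd1 and Klrk1 were lower, all 3 of Klre1, Klri1 and Klri2 were lower, and 1 of 2 Klrg genes was lower.

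**Figure D1:**
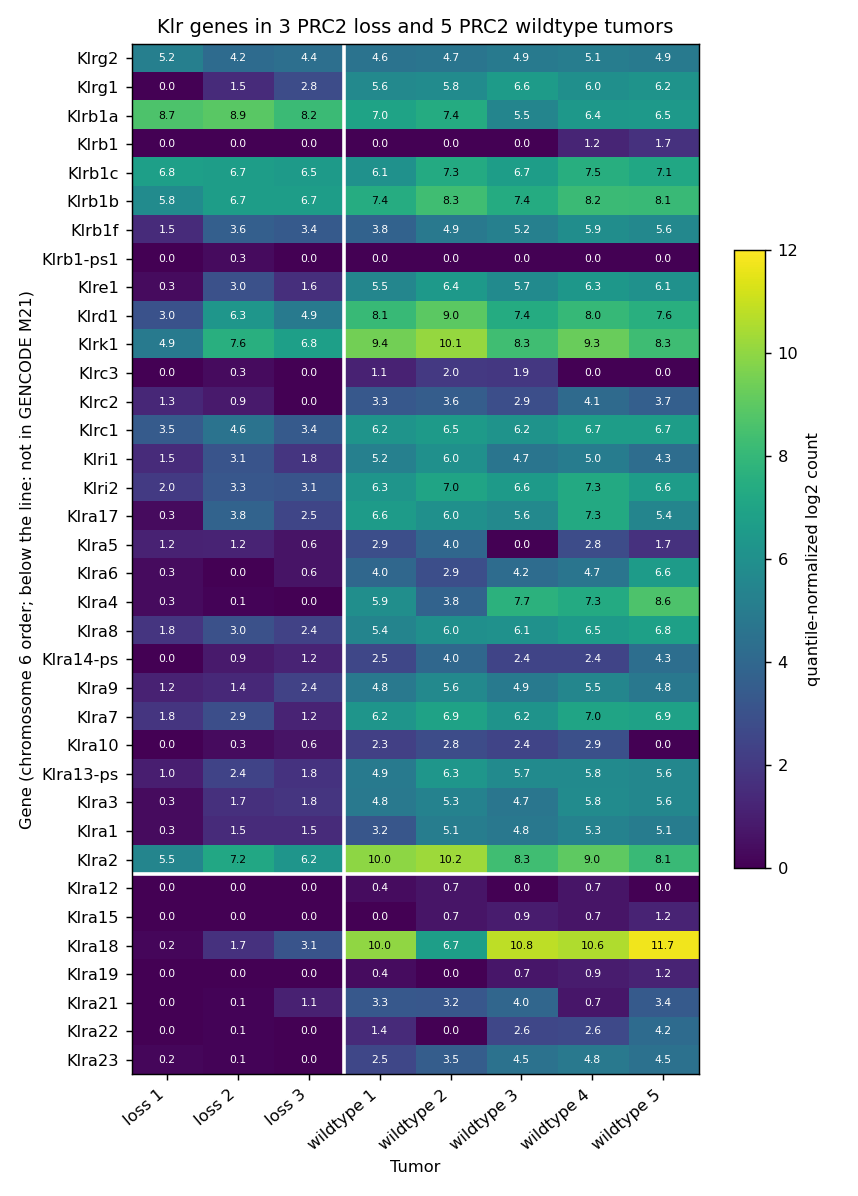
Quantile-normalized log2 count of each of the 36 Klr genes (rows, in chromosome 6 order, with 7 that GENCODE M21 does not hold below the line) in 3 PRC2 loss tumors (left) and 5 wildtype tumors (right). Klra18 reaches 11.73 in wildtype tumor 5 and no more than 3.13 in a PRC2 loss tumor, and Klrb1a is the row with the brighter cells on the left.

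**Figure D2:**
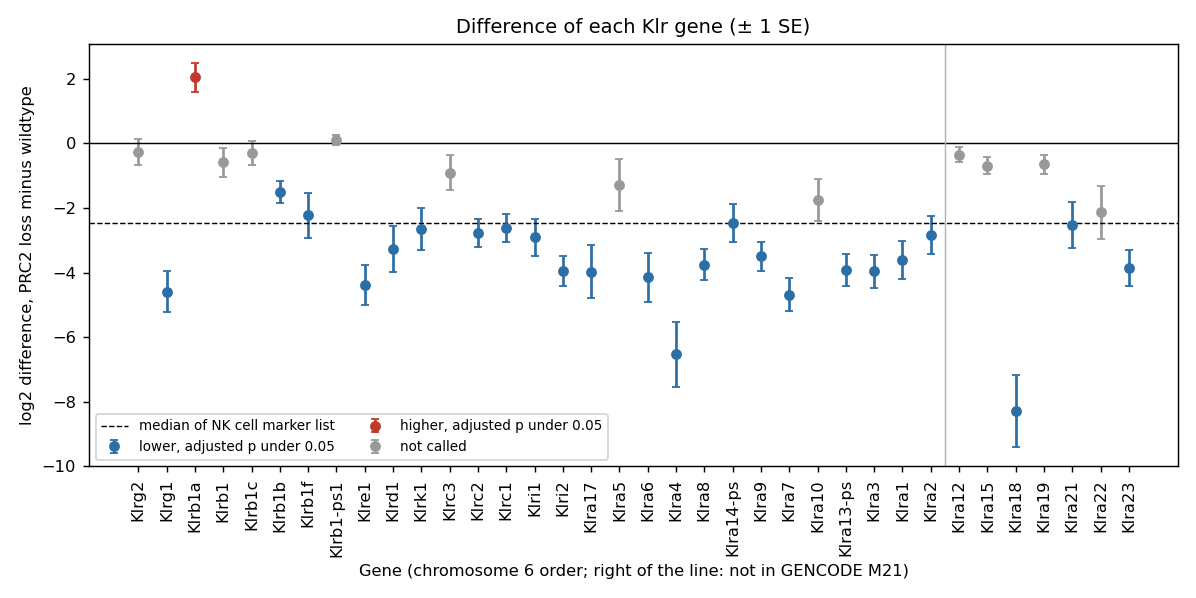
Log2 difference, PRC2 loss minus wildtype, of each Klr gene with 1 standard error, colored by the limma call. The 24 lower genes lie between -1.51 and -8.28, Klrb1a lies at 2.04, and the dashed line is the median of the NK cell marker list, -2.46.

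NK and T cell genes were lower in the same tumors. Of 20 measured NK cell markers other than Klr genes, 15 were lower and none higher, with a median difference of -2.46. When tumors of 1 animal number were averaged, 9 were lower. They include Ncr1, an activating NK receptor, at -3.80, Eomes, a transcription factor of NK cells, at -3.29, and Xcl1, a chemokine, at -5.30. Their summed level, on a log2 scale, was between 10.3 and 11.4 in PRC2 loss tumors and between 12 and 13.6 in wildtype tumors, and no marker of this list was at 0 in any tumor. A sum follows its highest genes, and in PRC2 loss tumor 1 a single uncalled marker was at 9.54. The mean log2 level over the list was 5.00 in PRC2 loss and 7.44 in wildtype tumors. Of 16 T cell markers 12 were lower and none higher, at a median of -2.14 and summed levels of 9.40 to 10.9 in PRC2 loss and 11.3 to 13.5 in wildtype tumors. That T cell count fell to 2 without PRC2 loss tumor 1, to 4 without wildtype tumor 1 and to 7 without PRC2 loss tumor 2 or 3. It was also 2 when tumors of 1 animal number were averaged, and 2 when each tumor was centred on housekeeping genes. In RNA of whole tumors, fewer cells of a type and less RNA per cell cannot be told apart, and the part of cell content in the lower Klr genes was not tested. When each tumor was centred on the mean of the 20 NK markers, a scaling added after the data were seen, 5 Klr genes were lower in limma, Klra18, Klra4, Klra7, Klre1 and Klrg1, against 0.654% of all genes. Under that scaling 9 Klr genes were higher, against 81.3% of all genes, since it raises every gene that fell by less than the markers.

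The 29 Klr genes that match GENCODE M21 (assembly mm10) all lie on chromosome 6, and 27 of them lie between Klrb1a, which starts at 128609227, and Klra2, which ends at 131247362. In that stretch 20 of 27 Klr genes were lower and 1 was higher, with a median difference of -2.83. The 21 other genes tested there had 6 lower and 3 higher and a median of -0.52. Klrg1 (122270596 to 122282882) and Klrg2 (38625693 to 38637242) lie outside it. Among the other genes of the stretch Clec1a, a lectin-like receptor known from endothelial and dendritic cells, had 12.97, 12.32 and 12.31 in PRC2 loss tumors, against 8.06, 8.40, 7.03, 7.01 and 7.61 in wildtype tumors. Clec1a was thus higher in every PRC2 loss tumor, by 4.91 on the log2 scale, in the same stretch as lower Klr genes but next to none of them.

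The set of Ly49 genes differs between mouse strains and the strain of these mice is not given, so a Klra row may hold reads of another gene of the family, and the receptor named beside each row is that of its symbol.

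Among the Klra genes, promoters are shown for 4 that were lower and whose annotated starts share a stretch of sequence. Capitals mark GCAATTTCCT, a word found by searching the Klra promoters themselves, and each sequence runs 5′ to 3′ from 250 bases before to 50 bases after the start given by RefSeq on GRCm38.p6.
Klra4 promoter, chr6:130067222-130067521, minus strand: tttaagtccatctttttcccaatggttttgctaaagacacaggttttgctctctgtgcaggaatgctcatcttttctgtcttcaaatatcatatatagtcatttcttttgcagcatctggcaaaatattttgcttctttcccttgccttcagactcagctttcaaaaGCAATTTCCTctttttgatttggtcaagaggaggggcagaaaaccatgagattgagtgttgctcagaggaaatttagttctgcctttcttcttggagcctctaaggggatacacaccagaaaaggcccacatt
Klra6 promoter, chr6:130026905-130027204, minus strand: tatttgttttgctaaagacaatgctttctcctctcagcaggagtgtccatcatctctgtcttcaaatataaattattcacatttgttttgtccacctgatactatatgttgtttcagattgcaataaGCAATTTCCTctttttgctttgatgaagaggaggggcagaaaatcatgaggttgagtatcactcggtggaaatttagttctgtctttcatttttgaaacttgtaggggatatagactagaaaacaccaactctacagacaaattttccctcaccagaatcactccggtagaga
Klra3 promoter, chr6:130337577-130337876, minus strand: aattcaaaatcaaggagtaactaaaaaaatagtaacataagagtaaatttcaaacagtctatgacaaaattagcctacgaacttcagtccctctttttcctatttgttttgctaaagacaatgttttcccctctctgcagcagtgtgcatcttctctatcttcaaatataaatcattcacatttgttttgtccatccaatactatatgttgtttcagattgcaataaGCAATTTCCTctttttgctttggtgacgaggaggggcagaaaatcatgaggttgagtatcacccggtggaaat
Klra9 promoter, chr6:130193063-130193362, minus strand: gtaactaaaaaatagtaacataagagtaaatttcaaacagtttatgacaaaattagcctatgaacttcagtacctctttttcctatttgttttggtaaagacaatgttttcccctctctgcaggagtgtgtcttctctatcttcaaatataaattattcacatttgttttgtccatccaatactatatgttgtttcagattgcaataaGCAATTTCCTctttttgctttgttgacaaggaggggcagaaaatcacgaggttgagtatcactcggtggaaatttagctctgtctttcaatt
On either strand this word is in the promoters of 8 of 11 Klra genes with a RefSeq promoter and in 39 of 32851 promoters of all genes, or 0.119%. Klra5, which did not pass, holds the word too, while Klra1 and Klra7, which were lower, and Klra10, which did not pass, lack it. The Klra3 and Klra9 promoters were 84.95% identical when aligned, and those of Klra4 and Klra6 59.2%. Since the word was picked for being common in these promoters, its share among them is a description and no test. In 1 of 11 Klra genes, Klra1, the promoter holds TGTGGT, the core read by RUNX factors, against 16.8% of all promoters on either strand.

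Klra18 and Klra4 had the largest differences of the Klr genes. Klra18 had 0.22, 1.70 and 3.13 in PRC2 loss tumors, against 10.004, 6.72, 10.81, 10.59 and 11.73 in wildtype tumors. Every wildtype tumor was above every PRC2 loss tumor, and wildtype tumor 2 was the lowest of its group. It averaged 1.69 ± 1.46 in PRC2 loss and 9.97 ± 1.92 in wildtype tumors (SD, n = 3 and 5) and fell by 8.28 (SE 1.12, limma adjusted p 0.00121), or by 9.10 without wildtype tumor 2. GENCODE M21 holds no gene of this symbol, and neither do 6 other Klra rows, so no position or role is given for them.

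Klra4 encodes Ly49D, an activating receptor that signals through the adaptor DAP12. It had 0.33, 0.11 and 0.00 in PRC2 loss tumors, against 5.94, 3.83, 7.69, 7.31 and 8.65 in wildtype tumors. The third PRC2 loss value was above 0 but only 2.2e-06, and wildtype tumor 2 was again the lowest of its group. Klra4 fell by 6.54 (SE 1.00, limma adjusted p 0.00203), or by 7.25 without wildtype tumor 2. Values between 0 and 0.001 occurred 61 times in the table, 8 in PRC2 loss tumor 2, 53 in PRC2 loss tumor 3 and none elsewhere, and 5 of the 59 genes concerned were Klr genes, Klra4, Klra12, Klra15, Klra19 and Klra22.

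Wildtype tumor 2 had the lowest wildtype value of 5 Klr genes, Klra18, Klra4, Klra6, Klra19 and Klra22, and the highest of 10 others, among them Klrk1, Klrd1, Klre1, Klra9 and Klra2, out of 32 with 5 distinct wildtype values. Over all such genes wildtype tumor 2 was the lowest for 29.8% and the highest for 25.2%. Klra4 was the one other Klr gene whose 5 wildtype tumors stood in the same order as for Klra18. That order was shared by 570 of 17026 genes with 5 distinct wildtype values, or 3.35%. Klra6, which encodes Ly49F, had 0.33, 0.00 and 0.65 in PRC2 loss tumors, against 4.01, 2.87, 4.24, 4.69 and 6.59 in wildtype tumors. Its wildtype tumors ran from the lowest in tumor 2 to the highest in tumor 5, as for Klra18, and it fell by 4.15 (limma adjusted p 0.00419).

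**Figure D3:**
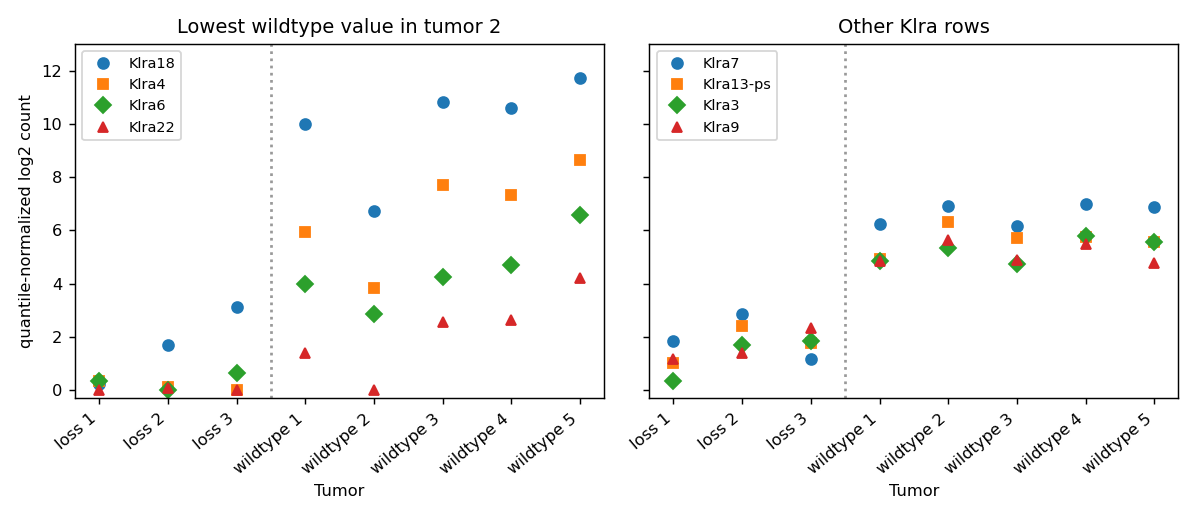
Quantile-normalized log2 counts of 8 Klra genes in each tumor, 3 PRC2 loss (left of the dotted line) and 5 wildtype (right). In the left panel wildtype tumor 2 is the lowest wildtype point of Klra18 (6.72), Klra4 (3.83), Klra6 (2.87) and Klra22 (0), and in the right panel Klra7, Klra13-ps, Klra3 and Klra9 show no such dip. Of 32 Klr genes with 5 distinct wildtype values, 5 were lowest in wildtype tumor 2, where 29.8% of all such genes were, so the dip is no particular trait of Klr genes.

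Klra7 and Klra8 were more even among the wildtype tumors. Klra7 encodes Ly49G, an inhibitory receptor of MHC class I, and had 1.85, 2.86 and 1.18 in PRC2 loss tumors, against 6.24, 6.93, 6.18, 7.0 and 6.88 in wildtype tumors. The wildtype tumors were close together and lay above all PRC2 loss tumors, and Klra7 fell by 4.68 (SE 0.503, limma adjusted p 0.000491). Klra8 encodes Ly49H, an activating receptor that recognizes cells infected with mouse cytomegalovirus. It had 1.85, 2.98 and 2.37 in PRC2 loss tumors, against 5.40, 5.99, 6.06, 6.54 and 6.81 in wildtype tumors. Klra8 fell by 3.76 (SE 0.487, limma adjusted p 0.00102), and its groups did not overlap.

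The inhibitory receptors Klra1 (Ly49A), Klra3 (Ly49C) and Klra9 (Ly49I) were lower by similar amounts. Klra3 had 0.33, 1.69 and 1.85 in PRC2 loss tumors, against 4.85, 5.33, 4.73, 5.81 and 5.57 in wildtype tumors. It fell by 3.97 (limma adjusted p 0.000966), Klra1 fell by 3.60 (0.00258) and Klra9 fell by 3.50 (0.00105), each without overlap. Klra1 also had the low wildtype value of 3.21 in tumor 1, against 4.80 to 5.34 in the other wildtype tumors. The pseudogenes Klra13-ps and Klra14-ps fell by 3.93 and 2.47, and the limma adjusted p of Klra14-ps was 0.012, or 0.0535 without PRC2 loss tumor 1.

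Some of these rows cannot be read apart from their neighbors. Of the 29 annotated Klr genes, 10 share over 10% of the 50-base words of their GENCODE M21 transcripts with other Klr genes, and 9 share none. The share was 39.8% for Klra10, 33.1% for Klra8, 31.5% for Klra9 and 4.35% for Klra4. The 7 Klra rows not in GENCODE M21, Klra18 among them, were not compared, so their sharing with any row, Klra4 included, is unknown. How reads that fit several copies were counted is not given in the sources used here, so values of the high-sharing rows are uncertain.

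Klra17 and Klra2 are known outside NK cells. Klra17 encodes Ly49Q, a receptor of plasmacytoid dendritic cells, and had 0.33, 3.80 and 2.53 in PRC2 loss tumors, against 6.59, 6.01, 5.65, 7.27 and 5.44 in wildtype tumors. It fell by 3.97 (SE 0.808, limma adjusted p 0.00666), with PRC2 loss tumor 1 far below the other two. Klra2 encodes Ly49B, known from myeloid cells, and had 5.48, 7.20 and 6.24 in PRC2 loss tumors, against 9.98, 10.22, 8.32, 9.01 and 8.14 in wildtype tumors. Klra2 fell by 2.83 (SE 0.590, limma adjusted p 0.00737), with every wildtype tumor above every PRC2 loss tumor. Neither shares a 50-base word with another annotated Klr gene. Per kilobase of exon, the mean log2 level of Klra2 was 5.38 in PRC2 loss and 8.21 in wildtype tumors. Among annotated Klra genes Klra4 at 6.37 and Klra7 at 6.31 came next in wildtype tumors. The gap between Klra4 and Klra7 was smaller than the wildtype SD of either gene.

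Of 10 plasmacytoid dendritic cell markers 5 were lower and 1, Siglech, was higher. Ccr9 was at -3.89 and Tlr9 at -2.56, and Siglech was at 1.23. The lower count was 2 without PRC2 loss tumor 1 or 3, 3 without PRC2 loss tumor 2 or wildtype tumor 1 or 4, and 1 when tumors of 1 animal number were averaged, and no marker was higher without wildtype tumor 1, 2 or 3 or any PRC2 loss tumor. The summed level of that list was 13.4 to 14 in PRC2 loss and 14.3 to 14.5 in wildtype tumors. Most of the sum in PRC2 loss tumors came from 1 uncalled marker. That marker was at 13.06 to 13.48 in PRC2 loss and 13.08 to 13.99 in wildtype tumors, so the sum says little of the other markers. The mean log2 level over the list was 6.59 in PRC2 loss and 8.52 in wildtype tumors. Of 12 macrophage markers 7 were lower and 1, Cd163, was higher, with summed levels of 15.3 to 15.7 in PRC2 loss and 15.9 to 17.0 in wildtype tumors. The lower count was 3 without PRC2 loss tumor 1, 4 without PRC2 loss tumor 3, 4 when tumors of 1 animal number were averaged and 3 when centred on housekeeping genes. The part of these cells in the Klra17 and Klra2 differences was not tested.

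The other Klra rows reached at most 4.84, the value of Klra23 in wildtype tumor 4. Klra23 fell by 3.86, at 0.22, 0.11 and 0.00 in PRC2 loss tumors, against 2.53, 3.52, 4.51, 4.84 and 4.47 in wildtype tumors (limma adjusted p 0.0015). Klra21 fell by 2.53 (limma adjusted p 0.0258) but its groups overlapped, since wildtype tumor 4 had 0.72 where PRC2 loss tumor 3 had 1.10. That call did not hold without wildtype tumor 1 (adjusted p 0.05) or 5 (0.0503), or without PRC2 loss tumor 1 (0.0903) or 2 (0.0886). Klra5, Klra10, Klra12, Klra15, Klra19 and Klra22 did not pass, at differences between -0.35 and -2.13, and all but Klra12 pass when 1 wildtype tumor is left out. The adjusted p was 0.021 for Klra15 without tumor 1, 0.0357 for Klra19 and 0.0123 for Klra22 without tumor 2, 0.0394 for Klra5 without tumor 3 and 0.00266 for Klra10 without tumor 5.

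Klrd1 and its partners were lower. Klrd1 encodes CD94, the common chain of receptors that bind the class I molecule Qa-1, and had 3.01, 6.30 and 4.91 in PRC2 loss tumors, against 8.10, 8.99, 7.41, 8.02 and 7.57 in wildtype tumors. PRC2 loss tumor 1 was far below the other two, and Klrd1 fell by 3.28 (SE 0.708, limma adjusted p 0.00852). Klrc1 encodes the inhibitory partner NKG2A and had 3.46, 4.57 and 3.42 in PRC2 loss tumors, against 6.20, 6.53, 6.15, 6.66 and 6.67 in wildtype tumors. It fell by 2.62 (limma adjusted p 0.0024), and Klrc2, the activating partner NKG2C, fell by 2.77 (0.00215), both without overlap. Klrc3 was at 0 in PRC2 loss tumors 1 and 3 and in wildtype tumors 4 and 5 and did not pass (adjusted p 0.221). Klrc1 shares 38.6% and Klrc3 36.3% of their 50-base words with other Klr genes, mainly Klrc2.

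Klrk1 encodes NKG2D, an activating receptor of NK cells and of some T cells that signals through the adaptor DAP10. It had 4.94, 7.57 and 6.78 in PRC2 loss tumors, against 9.45, 10.09, 8.32, 9.27 and 8.27 in wildtype tumors. The groups did not overlap, although PRC2 loss tumor 2 lay close to wildtype tumors 3 and 5, and Klrk1 fell by 2.65 (SE 0.641, limma adjusted p 0.0135). Without wildtype tumors 1 and 2, which share an animal number, the adjusted p was 0.0649. The Klrk1 call was also lost when tumors of 1 animal number were averaged and with the replicate number as a block.

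Klre1, Klri1 and Klri2 encode receptors that are known in rat to work as pairs, Klre1 with either Klri protein. Klre1 had 0.33, 2.98 and 1.62 in PRC2 loss tumors, against 5.53, 6.45, 5.72, 6.34 and 6.08 in wildtype tumors. It fell by 4.38 (SE 0.620, limma adjusted p 0.00145) without overlap, again with PRC2 loss tumor 1 the lowest. Klri2 fell by 3.95 (limma adjusted p 0.000698) and Klri1 fell by 2.91 (0.00557). Over the 24 lower Klr genes, the lowest PRC2 loss value was in tumor 1 for 18 genes, and the highest was in tumor 2 for 14. Over all lower genes with distinct values, the lowest was in tumor 1 for 44.2% and the highest in tumor 2 for 40.6%.

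Klrg1, an inhibitory receptor of mature NK cells and effector T cells, had 0.00, 1.5 and 2.80 in PRC2 loss tumors, against 5.64, 5.77, 6.58, 5.98 and 6.16 in wildtype tumors. All wildtype tumors were above all PRC2 loss tumors, and Klrg1 fell by 4.59 (SE 0.637, limma adjusted p 0.00133). Klrg2 had 5.16, 4.18 and 4.38 in PRC2 loss tumors, against 4.57, 4.66, 4.92, 5.10 and 4.92 in wildtype tumors. The groups overlapped, the difference was -0.26 ± 0.409 (SE) and the limma adjusted p was 0.641.

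The Klrb1 family was divided. Klrb1a, which encodes NKR-P1A, was the one Klr gene that was higher, with 8.65, 8.92 and 8.19 in PRC2 loss tumors, against 6.98, 7.38, 5.45, 6.41 and 6.50 in wildtype tumors. Every PRC2 loss tumor was above every wildtype tumor, and Klrb1a rose by 2.04 (SE 0.440, limma adjusted p 0.00838), a 4.12-fold difference of the normalized values. Klrb1b, an inhibitory receptor whose ligand is Clec2d, had 5.81, 6.68 and 6.67 in PRC2 loss tumors, against 7.43, 8.30, 7.40, 8.17 and 8.14 in wildtype tumors. Klrb1b was lower in every PRC2 loss tumor and fell by 1.51 (SE 0.351, limma adjusted p 0.0117).

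Klrb1c encodes the activating receptor known as NK1.1, which marks NK cells in some mouse strains. It had 6.78, 6.66 and 6.55 in PRC2 loss tumors, against 6.09, 7.33, 6.67, 7.51 and 7.15 in wildtype tumors. The PRC2 loss tumors lay within the range of the wildtype tumors, the difference was -0.29 ± 0.378 (SE) and the limma adjusted p was 0.58. Klrb1f, an activating receptor whose ligand is Clec2i, had 1.48, 3.64 and 3.42 in PRC2 loss tumors, against 3.78, 4.87, 5.23, 5.89 and 5.62 in wildtype tumors. Klrb1f fell by 2.23 (limma adjusted p 0.0346), a call that was lost without wildtype tumor 3, 4 or 5 or PRC2 loss tumor 1 or 3 (adjusted p 0.0568 to 0.118). The Klrb1f call was also lost when tumors of 1 animal number were averaged, with the replicate number as a block and when centred on housekeeping genes. Klrb1 and Klrb1-ps1 were at 0 in most tumors and did not pass.

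The promoters of Klrb1a and Klrb1b are shown because these genes of the Klrb1 family differed in direction. Capitals mark TGTGGT, the RUNX core, which was searched on both strands.
Klrb1a promoter, chr6:128622885-128623184, minus strand: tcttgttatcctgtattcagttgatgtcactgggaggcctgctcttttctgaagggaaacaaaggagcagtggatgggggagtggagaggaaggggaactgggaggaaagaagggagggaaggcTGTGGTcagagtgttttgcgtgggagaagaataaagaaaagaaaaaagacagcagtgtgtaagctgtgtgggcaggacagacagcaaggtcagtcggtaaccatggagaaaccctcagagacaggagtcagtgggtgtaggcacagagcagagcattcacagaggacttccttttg
Klrb1b promoter, chr6:128826259-128826558, minus strand: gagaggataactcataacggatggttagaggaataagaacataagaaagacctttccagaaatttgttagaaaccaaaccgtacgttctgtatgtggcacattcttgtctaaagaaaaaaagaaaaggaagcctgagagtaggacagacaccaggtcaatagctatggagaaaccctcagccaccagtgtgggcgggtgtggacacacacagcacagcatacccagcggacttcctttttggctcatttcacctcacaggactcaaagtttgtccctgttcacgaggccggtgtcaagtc
The Klrb1a promoter holds the core once and the Klrb1b promoter does not. The core is in 8 of 23 Klr genes with a RefSeq promoter, or 9 of 28 Klr promoters, against 16.8% of all promoters. Klra1, Klrc1, Klrc2, Klre1 and Klrk1, which were lower, hold it too, as do Klrb1c and Klrc3, which did not pass. The Klrb1c promoter was 69.4% identical to that of Klrb1a, and those of Klrc2 and Klrc3 were 98.34% identical. The T-box core GGTGTGA was in the promoter of 1 of 23 Klr genes, Klra1, and in 3.98% of all promoters, on either strand.

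The distance between these genes within each tumor was taken as a description, with no test, since the pairs were chosen after their values were seen. Klrb1a minus Klrb1b was 2.20 ± 0.661 in PRC2 loss and -1.34 ± 0.631 in wildtype tumors (SD, n = 3 and 5). Klrb1a minus Klrb1c was 1.93 ± 0.312 in PRC2 loss and -0.41 ± 0.88 in wildtype tumors, and Klrb1c minus Klrb1b was 0.28 ± 0.604 in PRC2 loss and -0.94 ± 0.270 in wildtype tumors.

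Set against the mean of the 20 NK markers in the same way, Klra18 was at -3.32 ± 0.942 in PRC2 loss and 2.53 ± 2.43 in wildtype tumors. Klra4 was at -4.86 ± 0.997 in PRC2 loss and -0.76 ± 2.37 in wildtype tumors, with wildtype tumor 2 at -4.48 below PRC2 loss tumor 1 at -3.71. Klrd1 was at -0.26 ± 0.875 in PRC2 loss and 0.58 ± 0.127 in wildtype tumors, and Klrk1 at 1.42 ± 0.527 in PRC2 loss and 1.64 ± 0.370 in wildtype tumors. For Klra4, Klrd1 and Klrk1 the values of the groups overlapped. Klrb1c went the other way, at 1.66 ± 0.939 in PRC2 loss and -0.49 ± 0.672 in wildtype tumors, without overlap.

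Mast cell markers, like Klrb1a, were higher in PRC2 loss than in wildtype tumors, but within each group the 2 did not rise together. All 8 were higher in PRC2 loss tumors, with a median difference of 3.68, among them the protease gene Cma1 at 4.14 and Kit, the stem cell factor receptor, at 1.46. Their summed level was between 15.2 and 16.4 in PRC2 loss and between 10.7 and 12.9 in wildtype tumors, and none was at 0 in any tumor. Wildtype tumor 2 had the lowest summed mast cell level and the highest Klrb1a value of its group. Among PRC2 loss tumors, tumor 2 had the highest Klrb1a value (8.92) and the lowest summed mast cell level (15.19). PRC2 loss tumor 3 had the lowest Klrb1a value (8.19) and the highest summed mast cell level (16.41). The part of mast cells, or of any other cell type, in the Klrb1a difference was not tested.

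**Figure D4:**
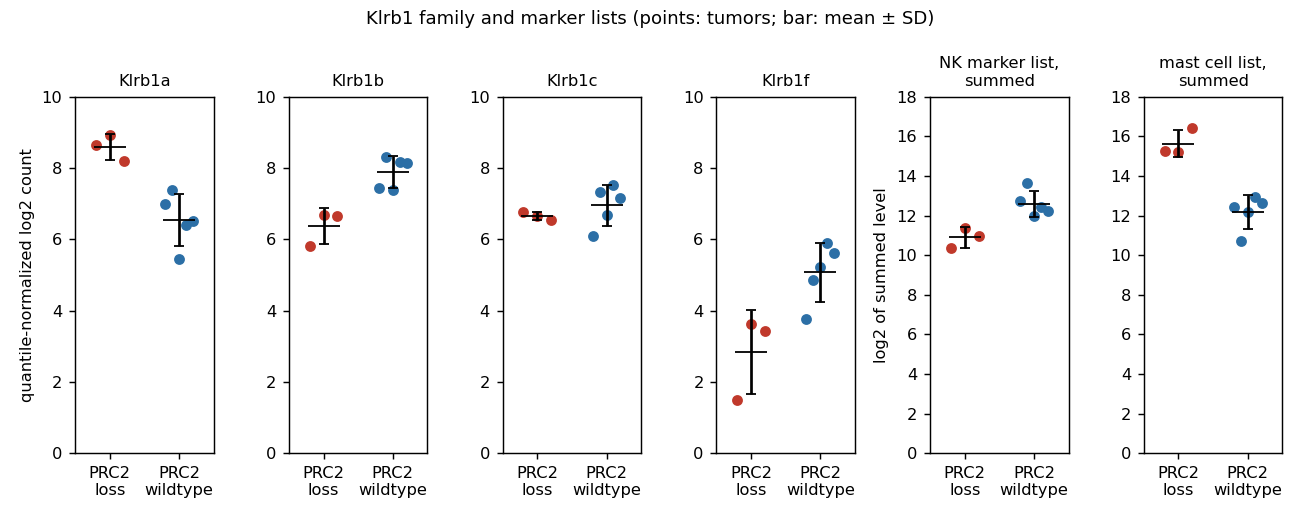
Quantile-normalized log2 counts of Klrb1a, Klrb1b, Klrb1c and Klrb1f, and log2 summed levels of the NK and mast cell marker lists, in 3 PRC2 loss (red) and 5 wildtype (blue) tumors, with each point a tumor and the bar its mean ± SD. Klrb1a and the mast cell list are higher in PRC2 loss tumors, Klrb1b, Klrb1f and the NK list are lower, and Klrb1c overlaps.

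The ligands that Klr receptors bind were called about as often as genes in general. Of 21 measured ligand genes 5 were lower (23.8%) and 3 higher (14.3%), with a median of -0.25, where 19.6% of all genes were lower and 16% higher. The class I genes H2-K1 and H2-D1, read by Klra receptors, differed by -0.49 and -0.17 and did not pass (limma adjusted p 0.574 and 0.834), and neither did H2-T23, which encodes Qa-1 (-0.08, 0.924). Clec2d, the ligand of Klrb1b, had 10.87, 11.89 and 12.70 in PRC2 loss tumors, against 12.23, 12.64, 11.39, 11.48 and 11.50 in wildtype tumors, and did not pass (limma adjusted p 0.972). Clec2g fell by 3.90 and Clec2i, the ligand of Klrb1f, by 1.28. These 2 genes lie among the Klrb1 genes on chromosome 6.

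The ligands of NKG2D were divided. Raet1e had 9.15, 7.91 and 9.09 in PRC2 loss tumors, against 6.06, 5.67, 5.60, 6.70 and 6.53 in wildtype tumors. It was higher in every PRC2 loss tumor and rose by 2.61 (SE 0.415, limma adjusted p 0.00231). Ulbp1, also called MULT1, had 5.34, 4.74 and 3.46 in PRC2 loss tumors, against 7.22, 6.98, 9.03, 6.78 and 9.80 in wildtype tumors. Ulbp1 was lower in every PRC2 loss tumor and fell by 3.45 (SE 0.807, limma adjusted p 0.0118). Raet1c fell by 0.65 at levels near 0, and Raet1a, Raet1b, Raet1d, H60b and H60c did not pass.

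The cadherins that Klrg1 binds were divided too. Cdh1 (E-cadherin) rose by 1.56 and Cdh4 (R-cadherin) by 3.47, while Cdh2 (N-cadherin) fell by 2.71. Cdh4 had 5.69, 5.27 and 6.54 in PRC2 loss tumors, against 2.05, 3.29, 2.45, 2.35 and 1.70 in wildtype tumors, so its groups stood apart. The count of lower ligands was 3 without wildtype tumor 3 or 4 or PRC2 loss tumor 1 or 2, and 2 without PRC2 loss tumor 3. It was 3 when each tumor was centred on housekeeping genes and 2 when tumors of 1 animal number were averaged.

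Adaptors and enzymes downstream of Klr receptors had a median difference of -0.91 over 13 genes, of which 4 were lower (30.8%, where 19.6% of all genes were) and none higher. Sh2d1a, which encodes SAP, fell by 3.32, Sh2d1b1, which encodes the related EAT-2 and is also on the NK marker list, by 2.43, Lcp2 by 1.45 and Vav1 by 1.25. Tyrobp, which encodes DAP12, had 10.18, 10.99 and 11.10 in PRC2 loss tumors, against 11.81, 12.49, 11.07, 11.79 and 11.12 in wildtype tumors, and did not pass (limma adjusted p 0.0802). Hcst, which encodes DAP10, at -0.99, and Fcer1g, the adaptor of Klrb1c, at 0.78, did not pass either. These 3 adaptors are also made by myeloid cells and, for Fcer1g, by mast cells. Without wildtype tumor 2, with array weights or centred on housekeeping genes, 1 adaptor gene was higher.

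**Figure D5:**
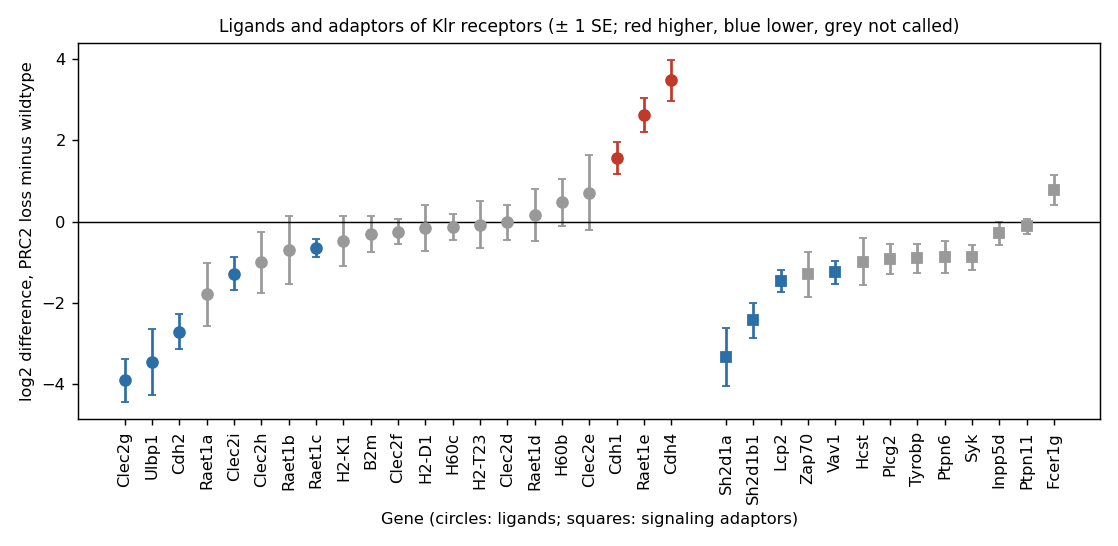
Log2 difference, PRC2 loss minus wildtype, with 1 standard error, of 21 ligand genes (circles) and 13 adaptor genes (squares) of Klr receptors. Clec2g (-3.90), Ulbp1 (-3.45) and Cdh2 (-2.71) are the lowest ligands, Cdh4 (3.47) and Raet1e (2.61) the highest, and Sh2d1a (-3.32) and Sh2d1b1 (-2.43) are the lowest adaptors.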

How the data were processed

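RNA was extracted with Trizol and made into TruSeq poly-A libraries, per the labels' protocols. Trim Galore, STAR 2.6, Partek 7.0 and mm10 are named, per the submitters' processing notes. For the annotation, the counting method and any use of strand, the answer is not given in the sources used here. For 20943 genes and 8 tumors, the authors deposited log2 counts that had been quantile-normalized. This step makes the distributions of all tumors alike, so library totals and sequencing depth are unknown and no counting interval is given. It also sets every level relative to the rest of the tumor.

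The titles' PRC2 status gave the groups. Of the genes, 136 were constant over all tumors and 20807 entered a two-sided limma 3.58.1 fit (R 4.3.3) with trended empirical Bayes variances. P-values were adjusted by Benjamini and Hochberg's method over these 20807 genes, with calls at 0.05. Nothing was added to the log2 values, and folds of low genes are understated. Positions and transcripts came from GENCODE M21, which matched 29 of the 36 Klr symbols, and promoters from RefSeq on GRCm38.p6, which matched 23.

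Every Klr gene, ligand and adaptor could be named, and of each other list up to 6 genes by smallest p. The Klr genes and the lists were chosen with earlier results of these data known, and the marker lists hold genes that other cell types also express. The fit was tested on simulated data, with 50 genes lowered by each of 4 amounts. It recovered 30% of those lowered by 1 on the log2 scale, 76% by 2, 78% by 3 and 88% by 4. It made 8 false calls among 20586 unchanged genes. Far fewer genes were shifted there than were called here, so these shares may differ in these data. A gene that did not pass is thus not shown to be unchanged. The alternatives were other offsets, scalings, variance priors and weights, leaving out low genes, animal or replicate number in the fit, and leaving out each tumor.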

Additional observations from a re-analysis of the deposited data

Results flagged for a closer look

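Among the 5 wildtype tumors, 1 value stood apart from the other 4 in 10 of 90 genes examined by Dixon's test at its 95% critical value, which chance alone flags in about 1 in 20 groups. Of the Klr genes, Klra1 was low in wildtype tumor 1 (3.21), Klra21 was low in wildtype tumor 4 (0.724) and Klra10 was listed at 0 in wildtype tumor 5. Wildtype tumor 2 was low in 4 mast cell genes, Cma1 (6.63), Cpa3 (7.09), Mcpt4 (6.96) and Tpsb2 (7.74). Wildtype tumor 5 was low in Siglech (6.05) and high in Styk1 (9.53), and wildtype tumor 1 was high in A2m (1.13), which was at 0 in the other 4 wildtype tumors. All values are quantile-normalized log2 counts.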

How the results depend on the processing

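Of the 25 Klr genes past the threshold, 4 (Klra18, Klra7, Klre1 and Klrg1) kept their call in all 18 alternatives that hold them, and 8 others lost it only under the centring on NK markers. Leaving out each tumor in turn gave 21 to 26 lower Klr genes and 1 higher, and 2972 to 4284 lower and 2555 to 3413 higher genes in all. Centring on 15 housekeeping genes, of which 9 were lower, moved the median of all genes to 0.43 and gave 22 lower and 2 higher Klr genes, the second being Klrb1-ps1, and 1697 lower and 7250 higher genes in all. It reversed Klra12 (0.20), Klrb1c (0.26), Klrg2 (0.29), Clec2d (0.53), H2-D1 (0.39), H2-K1 (0.0672) and H2-T23 (0.47), none past the threshold. Leaving out the genes below the median mean removed every Klr gene, and 2533 genes were lower and 1715 higher, since fewer were tested. Averaging tumors of 1 animal number left 2113 lower and 2113 higher genes, from fewer samples, and 22 lower Klr genes. With the replicate number as a block, 16 Klr genes were lower and 0 higher (Klrb1a 1.98, limma adjusted p 0.0606), and 774 genes were lower and 1129 higher. In that fit 3 NK markers, 1 T cell marker, 4 macrophage markers, 1 plasmacytoid dendritic cell marker, 1 ligand and 0 adaptor genes were lower, and 5 mast cell markers and 1 ligand were higher. The labels do not state that the numbers pair tumors, and the deviations of same-numbered tumors correlated at -0.155, 0.0945 and -0.0482. Wildtype tumors 4 and 5 have no PRC2 loss tumor of their number, so they add nothing to the difference in that fit. Among the Klr genes that lost the call there, Klra2, Klrd1 and Klrk1 had larger differences than without the block and the others smaller ones. Why these calls were lost was not tested. Leaving out each tumor, the uncalled differences ran from -0.46 to 0.45 for Clec2d, -0.50 to 0.13 for H2-D1 and -0.35 to 0.30 for H2-T23. Clec2d reversed with array weights (0.12), without wildtype tumor 1 or 2 (0.07 and 0.17) and without PRC2 loss tumor 1 (0.45). H2-D1 reversed without wildtype tumor 2 (0.13) or PRC2 loss tumor 1 (0.12). H2-T23 reversed with array weights (0.20), without wildtype tumor 1 or 2 (0.10 and 0.25) and without PRC2 loss tumor 1 (0.30). Where no cause is given above, the cause was not tested.

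Added after seeing the data were a fit without wildtype tumors 1 and 2, with 25 lower and 1 higher Klr genes, and the centring of each tumor on the NK markers, with 5 lower and 9 higher. That centring moved the median of all genes to 2.31 and gave 136 lower and 16907 higher genes, since genes near 0 in both groups are raised by the amount the markers fell. It reversed Klra10 (0.68), Klra12 (2.08), Klra15 (1.75), Klra19 (1.79), Klra22 (0.31), Klra5 (1.16), Klrb1 (1.85), Klrb1b (0.93), Klrb1c (2.15), Klrb1f (0.20), Klrc3 (1.53) and Klrg2 (2.18). The depth of the libraries is unknown, and values near 0 limit what Klra12, Klra15, Klra19, Klrb1, Klrb1-ps1 and Klrc3 can show.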
